A study of Gallus gallus with 21 samples.

Results

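The mRNAs described here are those that the deposited expression table places on scaffolds without a chromosome. They were chosen by position alone: every mRNA whose chromosome entry is not 1 to 28, 30 to 33, Z, W, MT or the linkage group LGE64. This rule gave 1170 of the 14558 mRNAs of the table (8.04%), and the other 13388 mRNAs (91.96%) are called placed. Each library was made from cerebrum RNA of 1 female Tibetan chicken. The libraries analysed were 3 from embryonic day 12 (E12), 3 from embryonic day 16 (E16), 2 from embryonic day 20 (E20), 3 from 100 days of age (D100), 3 from 1 year (Y1), 2 from 3 years (Y3) and 2 from 5 years (Y5). The labels name no treatment and no altered allele. The embryos came from incubated eggs, the D100 birds from a farm in Ya'an and the hens of Y1, Y3 and Y5 from Lhasa, so that age and place of rearing cannot be told apart between these groups. Below, embryonic means E12, E16 and E20 (8 libraries) and adult means Y1, Y3 and Y5 (7 libraries).

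A genome assembly joins sequenced pieces into scaffolds and then assigns scaffolds to chromosomes by maps and long-range links. Scaffolds that cannot be assigned are kept as unplaced, and their genes are annotated and counted like any others. Birds carry many very small chromosomes, the microchromosomes, which are dense in genes and rich in G and C bases, and such sequence is hard to sequence and to assemble. Unplaced scaffolds therefore can hold ordinary protein-coding genes as well as repeated families and gene fragments. The identifiers are Ensembl gene identifiers and 0 of them could be paired with a gene symbol, so the roles of these genes are not given, the cerebrum could not be checked against its marker genes, and whether a gene has a near-identical copy elsewhere was not tested. The table gives no start and end positions and no strand. It is bulk tissue, in which fewer cells of a type and less RNA per cell cannot be told apart.

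The 1170 mRNAs lay on 864 scaffolds of the assembly Gallus_gallus-5.0. Most scaffolds were small in gene content: 718 carried 1 mRNA, 80 carried 2, 54 carried 3 to 5 and 12 carried 6 or more, with at most 11 on a scaffold. The number within the Ensembl identifier also set them apart. Of the unplaced mRNAs, 1166 (99.7%) had a number of at least 29000, against 4324 (32.3%) of the placed mRNAs. Unplaced mRNAs were thus almost all of the higher numbers, and placed mRNAs of the same number range are given as a further comparison, which was chosen after seeing the data.

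Values are log2(FPKM+1). FPKM scales the fragments of a transcript to its length and to the sequenced fragments of the library. No read counts per mRNA were used, so the number of reads behind a value is unknown. The paper gives the total reads of each library, which were not set beside the values here. The summed FPKM of all mRNAs was 522546 to 811815 per library. Values down to 0.1 FPKM are given and lower ones are listed at 0, with 2857 such values in all. Every mRNA of the table was above 0.1 FPKM in at least 14 of the 18 libraries. An mRNA listed at 0 in all adult or in all embryonic libraries therefore could not be in the table. Library D100 replicate 3 stood apart: the 30 entries on MT held 28.8% of its summed FPKM, against 0.427% to 5.62% in the others. The kind of RNA behind these entries is not given, so they are called MT entries. Counts of calls at the steps to and from D100 are given with and without D100 replicate 3. The spreads, zeros per mRNA, correlations and stages of highest mean include it throughout.

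Unplaced mRNAs were expressed at a lower level than placed mRNAs in every library. Their median per library was 1.81 at the lowest, 2.12 in the middle and 2.31 at the highest, against 3.27, 3.62 and 3.67 for placed mRNAs. The lowest placed median therefore lay above the highest unplaced median. The difference of the medians was -1.52 ± 0.14 on the log2 scale (SD, n = 18 libraries). It was below 0 in 18 of 18 libraries (two-sided paired permutation test over libraries, p = 2e-05). The same mRNAs are measured in each library, so this p covers the repeat of the difference over libraries, not its spread over mRNAs. In the embryos the difference of the medians was -1.63 ± 0.06 at E12, -1.45 ± 0.13 at E16 and -1.38 ± 0.04 at E20 (SD). It was -1.40 ± 0.04 in the D100 birds, and in the hens -1.49 ± 0.07 (Y1), -1.57 ± 0.18 (Y3) and -1.77 ± 0.06 (Y5). Both Y5 libraries, with -1.73 and -1.81, had a wider gap than each of the other 16. Across the periods the gap averaged -1.59 in adult libraries and -1.50 in embryonic libraries, and this difference of -0.09 did not pass the test (exact two-sided permutation test over 6435 arrangements, p = 0.226).

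The gap was also present against smaller sets of placed mRNAs. Against mRNAs of chromosomes 10 to 28 and 30 to 33 alone it was -1.51, and against placed mRNAs with an Ensembl number of at least 29000 it was -1.28 (p = 2e-05 for each, permutation test over the same libraries).

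**Figure D1:**
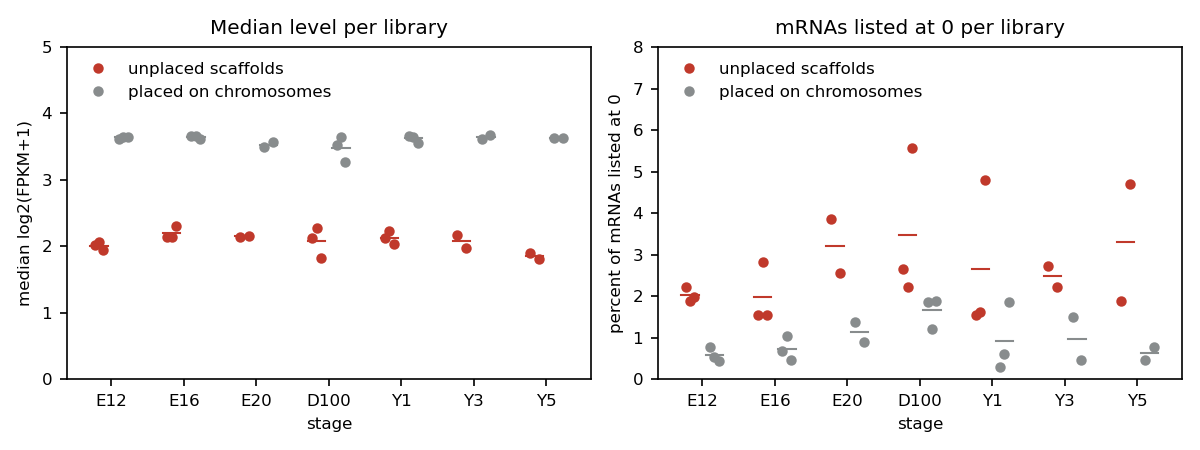
Each point is 1 library, by stage, with unplaced mRNAs in red to the left of placed mRNAs in grey; short lines are stage means. The left panel gives the median log2(FPKM+1), where red points lie between 1.81 and 2.31 and grey points between 3.27 and 3.67, and the right panel gives the percent of mRNAs listed at 0, from 1.54% to 5.56% of the unplaced and from 0.291% to 1.89% of the placed mRNAs.

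The difference ran through the range and was widest near its middle. Averaged over the 18 libraries, an unplaced mRNA had a median log2(FPKM+1) of 2.01, with quartiles of 1.05 and 3.39. For placed mRNAs the median was 3.59 and the quartiles were 2.33 and 4.70. A mean below 1 FPKM was found for 233 unplaced mRNAs (19.9%) against 685 placed mRNAs (5.12%), and a mean of 1 to 10 FPKM for 636 (54.4%) against 5233 (39.1%). At 10 to 100 FPKM stood 278 unplaced mRNAs (23.8%) against 6856 placed mRNAs (51.2%). At the top of the range, 23 unplaced mRNAs (1.97%) averaged at least 100 FPKM, against 614 placed mRNAs (4.59%).

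**Figure D2:**
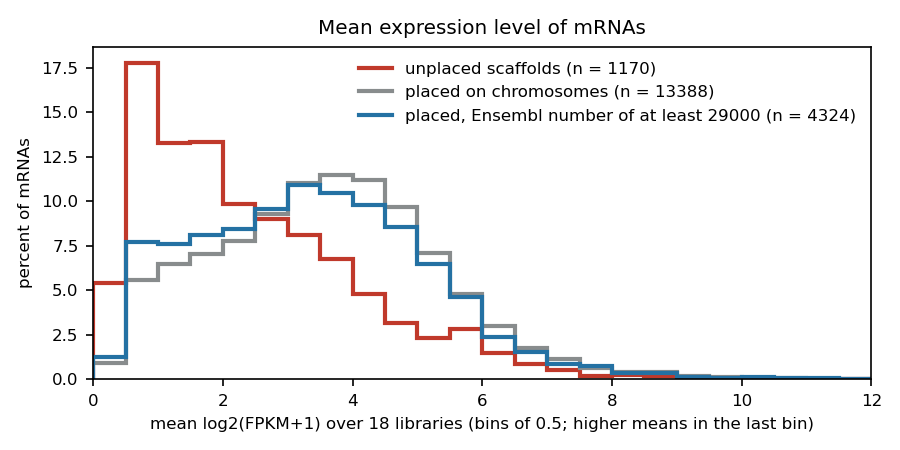
Percent of mRNAs (vertical axis) by mean log2(FPKM+1) over 18 libraries in bins of 0.5 (horizontal axis), for 1170 unplaced mRNAs (red), 13388 placed mRNAs (grey) and the 4324 placed mRNAs with an Ensembl number of at least 29000 (blue). The red curve has its median at 2.01, the grey curve at 3.59 and the blue curve at 3.34.

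All unplaced mRNAs together held 1.57% to 3.22% of the summed FPKM of a library, with a median of 2.47%. The lowest share was that of D100 replicate 3, the library with the high mitochondrial share. The share averaged 2.34% in adult libraries and 2.69% in embryonic libraries, a difference of -0.35 percentage points (exact two-sided permutation test over libraries, p = 0.0350). Adjusted over the 5 tests on levels, zeros and shares, this p was 0.0583, which did not pass the threshold. MT entries held 3.07% ± 1.62 of the summed FPKM in adult libraries and 0.799% ± 0.407 in embryonic libraries (SD). Without the MT entries the difference in the unplaced share was -0.304 points with an exact permutation p of 0.0671. Leaving out the most abundant unplaced mRNA and the most abundant placed mRNA widened it to -0.726 points (exact permutation p = 0.000932). The size of this difference was therefore sensitive to these abundant mRNAs, and it was larger without them.

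The abundant end was held by few genes. In a library the 10 most abundant unplaced mRNAs held 17.0% to 31.0% of the FPKM of unplaced mRNAs, and the 100 most abundant held 56.9% to 67.3%. ENSGALG00000037805 led, with a mean of 1120 FPKM. Its share of the FPKM of unplaced mRNAs averaged 7.07% and ran from 1.62% to 14.7% over libraries. In embryos its log2(FPKM+1) was 9.30, 9.58 and 9.59 at E12, 10.40, 10.61 and 10.54 at E16, and 8.21 and 8.74 at E20. The D100 birds had 9.84, 10.14 and 9.24, and the hens had 10.30, 10.53 and 10.49 (Y1), 9.84 and 10.51 (Y3) and 10.66 and 11.02 (Y5). The 2 libraries of E20 were the lowest of all 18, and Y5 held the highest. At E20 it fell relative to E16 by 2.04 on the log2 scale (SE 0.30, limma, Benjamini-Hochberg adjusted p = 0.000696) and at D100 it rose relative to E20 by 1.26 (SE 0.30, adjusted p = 0.0191). These comparisons share the E20 libraries.

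The next most abundant were ENSGALG00000039470 (mean 437 FPKM), ENSGALG00000035309 (400 FPKM), ENSGALG00000040676 (391 FPKM) and ENSGALG00000031038 (341 FPKM). ENSGALG00000040676 was the steadiest of them, between 7.82 and 9.20 on the log2 scale in all libraries, with a pooled within-stage SD of 0.23. ENSGALG00000035309 varied between birds: it had 9.41, 9.56 and 7.82 at Y1, against 7.99, 6.56 and 5.48 at D100. It was called higher at Y1 by 2.25 (SE 0.57, limma, adjusted p = 0.0258), although its highest D100 library lay above its lowest Y1 library. ENSGALG00000032394 had 8.87 and 8.34 at E20, against 6.58, 6.93 and 7.10 at E16. The E20 libraries did not overlap those of E16, and the rise of 1.74 was called (SE 0.30, adjusted p = 0.00213).

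Among the same 10 most abundant mRNAs, the adult mean lay below the embryonic mean in 9 and above it in ENSGALG00000037805. In limma, 41.2% of all unplaced mRNAs and 48.4% of placed mRNAs had a positive difference between adults and embryos. For ENSGALG00000032394 the adult and embryonic means were close, at 7.20 and 7.24. Of the 9, ENSGALG00000031038, ENSGALG00000030995 and ENSGALG00000034300 were called. ENSGALG00000030995 had 6.65, 6.89 and 7.40 as the lowest, median and highest adult values, against 6.92, 8.68 and 9.18 in embryos. It was called lower in adults by the difference of -1.32 (SE 0.23, adjusted p = 0.00026), while the adult range overlapped the embryonic one. ENSGALG00000034300 spread widely, with 4.82, 6.44 and 7.35 in adults against 6.66, 8.89 and 10.08 in embryos. Its 3 libraries at E12 gave 6.66, 10.08 and 9.60, and its pooled within-stage SD was 1.04. ENSGALG00000035506 and ENSGALG00000031099, with 281 and 231 FPKM, had differences of -0.60 (SE 0.15) and -0.50 (SE 0.20) and were not called.

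Unplaced mRNAs were listed at 0 more often than placed mRNAs in every library. Per library, 18 to 65 unplaced mRNAs were at 0 (median 26), which is 1.54% to 5.56% of them, against 39 to 253 placed mRNAs (0.291% to 1.89%). The difference was 1.73 ± 0.92 percentage points (SD, n = 18) and above 0 in 18 of 18 libraries (paired permutation test, two-sided, p = 2e-05). This p too covers the repeat over libraries, which share their mRNAs. The highest shares of unplaced mRNAs at 0 were 5.56% in D100 replicate 3, 4.79% in Y1 replicate 3 and 4.70% in Y5 replicate b. Among placed mRNAs, D100 replicate 3 and Y1 replicate 3 were also high with 1.89% and 1.85%, while Y5 replicate b had 0.784%. The gap averaged 1.94 points in adult libraries and 1.52 points in embryonic libraries, and this difference of 0.415 points did not pass the test (exact permutation test, p = 0.365).

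Over all 18 libraries, 303 unplaced mRNAs (25.9%) were at 0 in at least 1 library, against 1214 placed mRNAs (9.07%). Among mRNAs of like mean level the difference was smaller. With a mean log2(FPKM+1) below 1, 73.1% of unplaced mRNAs and 76.3% of placed mRNAs had a library at 0. At a mean of 1 to 2 the shares were 29.6% of unplaced and 25.5% of placed mRNAs, at 2 to 3 they were 5.00% and 2.97%, and at 3 to 4 they were 0.575% and 0.531%. Above 4 they were 0.515% of unplaced and 0.111% of placed mRNAs, from 1 unplaced and 6 placed mRNAs. These shares were not tested. The difference per library narrowed to an average of 0.735 points when only mRNAs with a mean of at least 1 FPKM were counted (p = 2e-05 by permutation). In Y1 replicate 2 it was then -0.0341.

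Of the 303 mRNAs, 140 were at 0 in 1 library, 88 in 2, 51 in 3 and 24 in 4, the most that the table holds. Among the 140, the library at 0 was D100 replicate 3 for 25 mRNAs and Y5 replicate b for 23. The 5 mRNAs of highest mean level among the 24 are given here, a choice made after seeing the data because all 24 were tied. ENSGALG00000041817 was at 0 in 4 embryonic libraries, and ENSGALG00000034998 was at 0 in E16 replicates 1 and 2, D100 replicate 3 and Y1 replicate 3. In the other three, ENSGALG00000044118, ENSGALG00000034920 and ENSGALG00000044475, libraries at 0 lay beside libraries of the same stage with clear values. ENSGALG00000044118 had 0 and 1.91 at E20 and 0 and 1.95 at Y5, and 9.0% of its variance lay between stages.

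Level and zeros went with the number of mRNAs on the scaffold. The median of the mean log2(FPKM+1) was 1.71 over the 718 mRNAs alone on their scaffold, 2.25 where a scaffold carried 2, 2.84 where it carried 3 to 5, and 3.14 where it carried 6 or more. Relative to placed mRNAs, the gap in median level ranged over libraries from -2.14 to -1.69 for mRNAs alone on a scaffold and from -0.84 to 0.01 for the 92 mRNAs on scaffolds with 6 or more. The most gene-rich scaffolds therefore came close to the placed level in some libraries. The share of mRNAs with a library at 0 was 32.0%, 19.4%, 16.0% and 10.9% in these 4 classes. Scaffold length was not used here, and the trend over classes was not tested.

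Neighbours on a scaffold were only loosely alike in time course. Over the 18 libraries, 694 pairs of mRNAs on the same scaffold had a median Pearson r of 0.17, with quartiles of -0.08 and 0.43, against 0.07 for pairs on different scaffolds. An r above 0.5 was reached by 18.3% of pairs on the same scaffold and by 8.62% of pairs on different scaffolds. These pairs share libraries and mRNAs, so the figures are a description. Of the 12 scaffolds with 6 or more mRNAs, the median r within a scaffold ran from -0.09 to 0.59.

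Birds of a stage differed a little more in unplaced than in placed mRNAs. The median within-stage SD was 0.36 against 0.32 on the log2 scale, and the median share of variance between stages was 58.7% against 68.2%. At a mean above 4 these shares were 71.5% and 72.2%, and at a mean of 1 to 2 they were 53.1% and 64.7%. The median SD was higher in unplaced mRNAs at a mean of 2 to 3 (0.42 against 0.36) and above 4 (0.33 against 0.28). Below 1 it was lower in unplaced mRNAs (0.30 against 0.34). How level enters the comparison was not tested. Across libraries of the same stage, unplaced mRNAs correlated at a mean Pearson r of 0.938 ± 0.025 (SD, 15 pairs) and placed mRNAs at 0.950 ± 0.029. Between adult and embryonic libraries the mean r was 0.879 ± 0.015 for unplaced mRNAs and 0.853 ± 0.022 for placed mRNAs (56 pairs). The drop between these kinds of pairs was thus smaller for unplaced mRNAs, which is a description because pairs share libraries.

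The 5 mRNAs of largest spread between birds of the same age were chosen by that spread. ENSGALG00000036560 had a within-stage SD of 2.91, and 5.41% of its variance lay between stages. Embryos had 2.40, 4.63 and 3.14 at E12, 6.44, 6.12 and 0.20 at E16, and 1.80 and 7.49 at E20. The D100 birds had 0, 5.43 and 5.64, and the hens had 6.02, 6.41 and 1.66 (Y1), 6.16 and 0.64 (Y3) and 5.06 and 4.24 (Y5). From E16 to Y3, each stage thus had a bird below 2 beside a bird above 5. ENSGALG00000042366 (SD 2.03) had the same kind of spread, with 4.91, 4.89 and 0.94 at E16 and 4.72 and 0.23 at E20. ENSGALG00000031712 (SD 1.63) had 6.04 and 5.36 at E20, while at D100 a bird with 4.72 stood beside birds with 0.78 and 1.03.

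ENSGALG00000043565 (SD 1.52) was at 0 in D100 replicate 1 and Y1 replicate 3 and between 2.16 and 6.22 in the other libraries. ENSGALG00000036955 (SD 1.20) ranged from 1.38 to 5.93 and had both extremes at D100. Low libraries were partly shared. D100 replicate 1 and Y1 replicate 3, where ENSGALG00000043565 was at 0, were also low in ENSGALG00000036560 (0 and 1.66). E16 replicate 3 was low in both ENSGALG00000036560 and ENSGALG00000042366 (0.20 and 0.94). At E20 the low library of ENSGALG00000036560 was replicate 1 and that of ENSGALG00000042366 was replicate 2. What sets the spread was not tested.

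Changes with age were called in limma where the difference reached a fold of 2 and the Benjamini-Hochberg adjusted p, over all 14558 mRNAs, was at most 0.05. At least 1 of the 6 comparisons of adjacent stages called 158 unplaced mRNAs (13.5%) and 2552 placed mRNAs (19.1%). With adult against embryonic included, 212 unplaced mRNAs (18.1%) and 3377 placed mRNAs (25.2%) were called. The share of mRNAs called was therefore lower on unplaced scaffolds, and the difference of these shares was not tested. Unplaced mRNAs were also weaker, and on the log2(FPKM+1) scale the change of a weak mRNA is understated. Whether level bears on the lower share called was not tested.

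**Figure D3:**
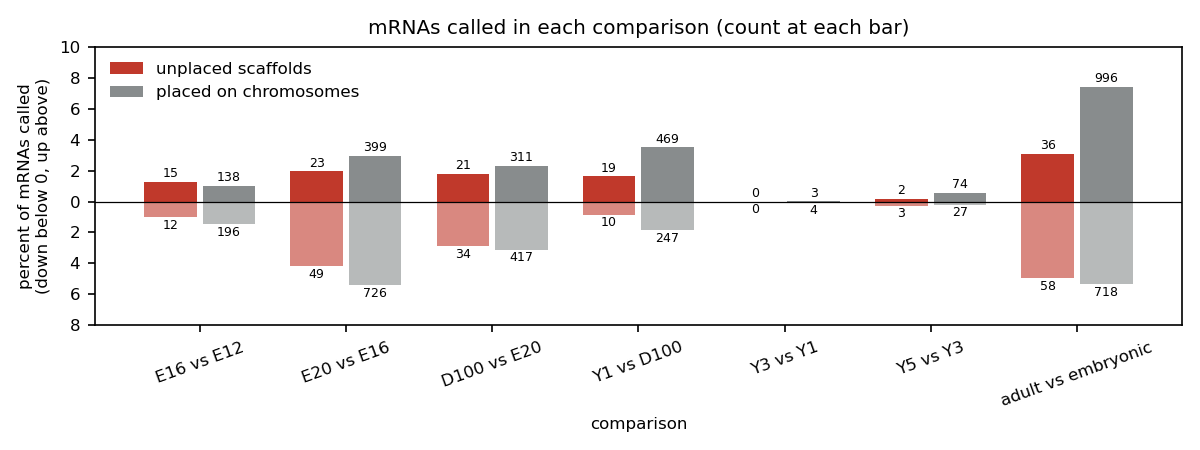
Percent of mRNAs called higher (bars above 0) or lower (bars below 0) in the later stage or in adults, for each comparison (horizontal axis), with unplaced mRNAs in red to the left of placed mRNAs in grey and the count at each bar. Adult against embryonic called 36 unplaced mRNAs higher (3.08%) and 58 lower (4.96%), against 996 (7.44%) and 718 (5.36%) placed mRNAs.

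Stage means of unplaced mRNAs peaked most often late in embryonic life. The highest of the 7 stage means was that of E12 for 13.2% of unplaced mRNAs, E16 for 21.2% and E20 for 19.7%. D100 held it for 10.7%, Y1 for 13.1%, Y3 for 13.9% and Y5 for 8.29%. For placed mRNAs the shares were 20.8%, 17.6%, 12.7%, 7.63%, 9.62%, 15.0% and 16.6% in the same order. Fewer unplaced than placed mRNAs thus peaked at the ends of the series, E12 and Y5. Among adults, the stage mean was lower at Y3 than at Y1 and lower again at Y5 for 387 unplaced mRNAs (33.1%) against 2564 placed mRNAs (19.2%), and higher at each step for 136 (11.6%) against 2705 (20.2%). With 2 or 3 birds per stage, these orders were not tested.

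Adult against embryonic cerebrum gave the largest set of calls, and on unplaced scaffolds more mRNAs were lower than higher in adults. In limma, 36 unplaced mRNAs (3.08%) were higher in adults, where 7.09% of all mRNAs were, and 58 (4.96%) were lower, where 5.33% of all were. Placed mRNAs had the reverse balance, with 996 higher (7.44%) and 718 lower (5.36%). With any library left out, more unplaced mRNAs were still called lower than higher. The excess depended on single hens: it shrank without Y3 replicate b or Y5 replicate b and grew without Y3 replicate a or Y5 replicate a. With a pseudocount of 0.1 in place of 1 the unplaced count grew to 175, with 71 higher (6.07%, against 9.80% of all mRNAs) and 104 lower (8.89%, against 7.54% of all), and of placed mRNAs 1356 were higher (10.1%) and 994 lower (7.42%). The share called lower in adults was therefore below that of all mRNAs at the first pseudocount and above it at the second. The median difference over all unplaced mRNAs was -0.09, against -0.03 over placed mRNAs. With Bonferroni adjustment 12 unplaced mRNAs were higher, where 3.54% of all mRNAs were, and 21 lower, where 2.44% of all were. The adult and embryonic ranges did not overlap for 15 unplaced mRNAs higher in adults (1.28%), against 5.87% of all mRNAs, and for 39 lower in adults (3.33%), against 5.03% of all.

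By level, the lower side was fullest among the abundant unplaced mRNAs. Of the 194 with a mean log2(FPKM+1) above 4, 26 (13.4%) were called lower and 11 (5.67%) higher in adults, against 325 (6.01%) and 383 (7.08%) of placed mRNAs of that level. Of the 271 with a mean below 1, 1 was called lower (0.369%) and 2 higher (0.738%), against 0.921% and 3.22% of placed mRNAs. At means of 1 to 2, 2 to 3 and 3 to 4, 2.89%, 4.55% and 2.30% of unplaced mRNAs were called higher. For placed mRNAs these shares were 9.89%, 8.52% and 7.00%. Called lower in the same classes were 3.86%, 6.36% and 2.87% of unplaced mRNAs, against 6.14%, 5.55% and 4.88% of placed mRNAs. The shares in these level classes were not tested.

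The D100 birds mostly lay between the periods. Of the 58 mRNAs called lower in adults, the D100 mean lay between the adult and the embryonic mean in 46 and nearer to the adult mean in 41. Of the 36 called higher, it lay between them in 29 and nearer to the adult mean in 26. The highest stage mean of the 58 was at E12 in 16, at E16 in 24, at E20 in 17 and at D100 in 1.

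**Figure D4:**
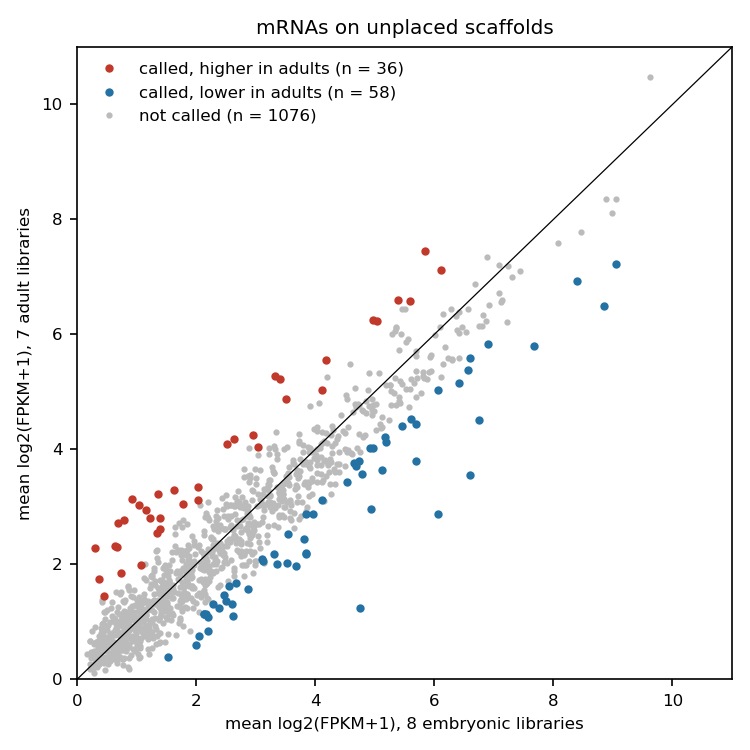
Mean log2(FPKM+1) of each unplaced mRNA in 7 adult libraries (vertical axis) against 8 embryonic libraries (horizontal axis), with the line of equal levels. The 36 mRNAs called higher in adults are red, the 58 called lower are blue and the 1076 others are grey; the blue points farthest below the line reach a difference of -3.53.

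Among called falls with ranges that did not overlap, the largest and the third belonged to neighbours. ENSGALG00000045996 and ENSGALG00000030574 were the only mRNAs on their scaffold. ENSGALG00000045996 had 0, 1.49 and 1.91 as the lowest, median and highest of the adult values, against 3.63, 4.75 and 5.60 in embryos. ENSGALG00000030574 had 3.10, 3.49 and 4.24 in adults, against 5.23, 6.70 and 7.29 in embryos. For neither did the periods overlap. The differences were -3.53 (SE 0.41, limma, adjusted p = 7.79e-06) and -3.01 (SE 0.22, adjusted p = 9.88e-08). Over the 18 libraries they correlated at a Pearson r of 0.96, and their deviations from the stage means at 0.84.

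In embryos, ENSGALG00000030574 had 7.26, 7.29 and 7.14 at E12, 6.12, 6.27 and 7.24 at E16, and 6.23 and 5.23 at E20. The D100 birds had 4.78, 4.66 and 3.63, and the hens had 3.58, 4.24 and 3.88 (Y1), 3.49 and 3.10 (Y3) and 3.37 and 3.16 (Y5). Of its adjacent comparisons, D100 against E20 was called, with a difference of -1.37 (SE 0.38, adjusted p = 0.0368). ENSGALG00000045996 was listed at 0 in D100 replicate 3 and Y3 replicate b.

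ENSGALG00000041548, alone on its scaffold, had a fall between these. It had 2.47, 2.92 and 3.20 in adults, against 4.54, 6.18 and 6.84 in embryos, with a difference of -3.05 (SE 0.26, adjusted p = 4.11e-07). Its fall was called at E20 relative to E16 (-1.57, SE 0.45, adjusted p = 0.0324) and at D100 relative to E20 (-1.86, SE 0.45, adjusted p = 0.0217). The D100 libraries, with 3.80, 3.63 and 1.83, lay below both E20 libraries, with 4.54 and 5.36.

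ENSGALG00000034130 and ENSGALG00000044453 came from scaffolds with 5 mRNAs each. ENSGALG00000034130 was nearly flat before hatching, with embryonic values of 6.45, 6.86 and 7.00 (lowest, median, highest), and adult values of 3.88, 4.72 and 4.88 lay below all of them. The difference was -2.17 (SE 0.16, adjusted p = 1.21e-07). ENSGALG00000044453 had 4.97, 5.87 and 6.42 in adults, against 7.47, 7.59 and 8.19 in embryos, with a difference of -1.92 (SE 0.17, adjusted p = 4.86e-07). Both were called lower at D100 than at E20, by -1.78 (SE 0.28) and -1.31 (SE 0.29).

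The other falls among the 10 largest with ranges that did not overlap ran from -1.61 to -1.86. ENSGALG00000031038, among the most abundant unplaced mRNAs, had 6.85, 7.17 and 7.65 in adults, against 8.37, 8.96 and 9.74 in embryos (difference -1.78, SE 0.17, adjusted p = 8.57e-07). ENSGALG00000030087, ENSGALG00000029182, ENSGALG00000040291 and ENSGALG00000037927 differed by -1.86, -1.71, -1.70 and -1.61, with SE of 0.16 to 0.20. Of these, ENSGALG00000029182 and ENSGALG00000040291 were also called lower at D100 than at E20, while ENSGALG00000030087 and ENSGALG00000037927 had no call between adjacent stages. Each of the 10 falls kept its call with a pseudocount of 0.1, with median-ratio scaling, with only the adult and embryonic libraries, and with any library left out.

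Rises in adults were smaller. ENSGALG00000031916 led, with 2.16, 3.15 and 3.75 in adults (lowest, median, highest), against 0.59, 0.75 and 1.52 in embryos, and a difference of 2.15 (SE 0.26, adjusted p = 1.22e-05). ENSGALG00000041817 had 1.35, 2.41 and 3.18 in adults, against 0, 0.21 and 0.69 in embryos, and a difference of 1.93 (SE 0.22, adjusted p = 6.05e-06). The value of ENSGALG00000041817 includes 4 embryonic libraries listed at 0, so the fold is a value on the log2(FPKM+1) scale only.

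ENSGALG00000038505 had 3.86, 3.89 and 4.68 in adults, against 1.96, 2.22 and 3.55 in embryos, and a difference of 1.63 (SE 0.15, adjusted p = 9.93e-07). It did not rise steadily. Before hatching it was higher at E16 than at E12 by 1.24 (SE 0.24, adjusted p = 0.0106) and lower at E20 than at E16 by the difference of -1.03 (SE 0.27, adjusted p = 0.02). At D100 it had 4.15, 4.40 and 3.35, against 2.18 and 2.25 at E20, and was called higher by 1.75 (SE 0.27, adjusted p = 0.00235).

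The other 7 of the 10 called rises with ranges that did not overlap had differences of 1.01 to 1.51. ENSGALG00000034358 had 3.95, 4.20 and 4.31 in adults, against 1.86, 2.70 and 3.94 in embryos, where the highest embryonic value missed the lowest adult value by a narrow margin. ENSGALG00000045094 and ENSGALG00000040553 were abundant, with adult medians of 6.31 and 6.42, against embryonic medians of 5.07 and 5.06. ENSGALG00000036853 had adult and embryonic medians of 3.02 and 1.89. Of the 7, ENSGALG00000009239, ENSGALG00000034408 and ENSGALG00000033661 had differences of 1.02, 1.02 and 1.01, close to the fold threshold. Leaving out any of 5, 4 and 7 libraries took them below it, down to 0.90, 0.98 and 0.97, with adjusted p of at most 0.000475 throughout.

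Neighbours did not always move together. ENSGALG00000034408, higher in adults with a median of 6.58 against 5.55 in embryos, lay on the same scaffold as ENSGALG00000034130, lower in adults by the difference of -2.17. Their Pearson r over the 18 libraries was -0.64, and that of their deviations from the stage means was 0.09. They were named for opposite changes between the periods, so a negative r over all libraries follows from that choice. A scaffold with 9 mRNAs carried 4 that were called, 3 of them higher in adults. The fourth, ENSGALG00000037748, which lies outside the rule for named genes and was taken after its values were seen, was lower by the difference of -1.04.

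The 3 that were higher began at different ages. ENSGALG00000031916 had 3.29, 3.68 and 2.21 at D100, against 0.75 and 1.52 at E20, and was called at that step (difference 1.92, SE 0.45, adjusted p = 0.0189). ENSGALG00000031546 was between 0 and 1.14 in every library up to D100 and had 2.06, 2.61 and 4.09 at Y1. ENSGALG00000035153 stayed between 0.47 and 1.71 up to Y1 and had 4.36 and 4.49 at Y5. Correlations among these 3 over the libraries were 0.28 to 0.53. Those of the deviations from the stage means were 0.67 for ENSGALG00000031916 with ENSGALG00000035153 and 0.07 for each other pair. The call of ENSGALG00000031916 at D100 was lost without D100 replicate 2 or E20 replicate 1 (difference 1.54 to 1.61).

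Between E16 and E12, 15 unplaced mRNAs rose (1.28%, against 1.05% of all mRNAs) and 12 fell (1.03%, against 1.43% of all). The median difference over unplaced mRNAs was 0.13, against -0.01 over placed mRNAs, and 740 unplaced mRNAs (63.2%) had a positive difference, against 6621 (49.5%) of placed mRNAs. With only 3 birds a stage, the count moved with single libraries: it was 7 without E12 replicate 1 or E16 replicate 2, 9 without E12 replicate 2, 14 without E12 replicate 3, 12 without E16 replicate 1, 47 without E16 replicate 3 and 43 without D100 replicate 3. After median-ratio scaling 21 rose and 10 fell, while of placed mRNAs 169 rose and 201 fell, against 138 and 196 before it. A fit of the E16 and E12 libraries alone called 44 unplaced mRNAs. In that fit the rise of ENSGALG00000042490 lost its call (adjusted p = 0.0716).

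ENSGALG00000033447 peaked at E16. It had 7.47, 7.80 and 7.11 at E16, against 5.14, 5.44 and 5.47 at E12, a rise of 2.11 (SE 0.31, adjusted p = 0.00242). At E20 it had 5.37 and 5.36 and was lower than at E16 by the difference of -2.09 (SE 0.35, adjusted p = 0.00152). Later it lay between 4.12 and 6.15. These comparisons share the E16 libraries.

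ENSGALG00000044564 had 5.19, 5.44 and 5.31 at E16, against 4.02, 3.94 and 3.43 at E12 (difference 1.52, SE 0.37, adjusted p = 0.0355). ENSGALG00000042490 was at 3.40, 3.40 and 3.18 at E16, against 0.16, 2.62 and 0.17 at E12 (difference 2.34, SE 0.60, adjusted p = 0.0402). Only 2 of the E12 birds were low, and all libraries after E16 but Y3 replicate b lay between 2.40 and 2.98. The E16 values of ENSGALG00000042490 were above those of every other library.

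Of the 12 falls, the largest with stages that did not overlap were those of ENSGALG00000046585, ENSGALG00000034998 and ENSGALG00000032489. ENSGALG00000046585, on the scaffold with 11 mRNAs, had 1.18, 1.46 and 2.97 at E16, against 4.21, 4.41 and 3.49 at E12 (difference -2.17, SE 0.47, adjusted p = 0.0194). It was called higher again at E20 (difference 1.75, SE 0.53, adjusted p = 0.0397), with 4.34 and 2.90. ENSGALG00000032489 had 4.83, 5.01 and 4.96 at E16, against 6.32, 7.11 and 6.89 at E12 (difference -1.84, SE 0.39, adjusted p = 0.0161). Of the 6 calls named for this step, those of ENSGALG00000042490, ENSGALG00000044564, ENSGALG00000046585, ENSGALG00000034998 and ENSGALG00000032489 were each lost without any of 4 to 8 libraries, with adjusted p between 0.0501 and 0.183. The rise of ENSGALG00000033447 was kept throughout.

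Between E20 and E16, 23 unplaced mRNAs rose (1.97%, against 2.9% of all mRNAs) and 49 fell (4.19%, against 5.32% of all). After median-ratio scaling, the placed mRNAs that rose went from 399 to 506 and those that fell from 726 to 602. The balance of unplaced mRNAs was then about even, with 39 that rose and 37 that fell. The median difference of all mRNAs moved by 0.07 under this scaling. Without E20 replicate 1 the count was 22, and a fit of the E20 and E16 libraries alone called 18.

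ENSGALG00000041578, ENSGALG00000029529 and ENSGALG00000044638, each alone on its scaffold, had the largest called rises with stages that did not overlap. ENSGALG00000041578 had 6.03 and 5.16 at E20, against 3.28, 3.30 and 3.07 at E16 (difference 2.38, SE 0.47, adjusted p = 0.00458). ENSGALG00000029529 had 3.55 and 2.73 at E20, against 1.13, 1.09 and 0.25 at E16 (difference 2.31, SE 0.55, adjusted p = 0.0127). ENSGALG00000044638 had 4.03 and 2.89 at E20, against 1.46, 1.47 and 1.37 at E16 (difference 2.03, SE 0.55, adjusted p = 0.0237).

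The 3 mRNAs also followed each other in other stages, a likeness seen after their values were known. At D100 each was low in replicate 1, with 3.74, 0.90 and 1.39, and high in replicate 2, with 5.84, 3.56 and 3.89. Pearson r over the 18 libraries was 0.80 to 0.97, and that of the deviations from the stage means was 0.62 to 0.79. Without E20 replicate 1 the 3 rises lost their call (adjusted p of 0.0877 for ENSGALG00000041578, 0.158 for ENSGALG00000029529 and up to 0.265 for ENSGALG00000044638, which was also lost without E16 replicate 1 or 2). With only the libraries compared, the calls of ENSGALG00000029529 and ENSGALG00000044638 were lost too (adjusted p of 0.0538 and 0.0551).

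Of the falls at E20, that of ENSGALG00000034112 was confined to this age among the stages analysed. It had 0.71 and 1.03 at E20, against 2.66, 3.11 and 3.34 at E16 (difference -2.17, SE 0.36, adjusted p = 0.00149), and no other library was below 2.12. At D100 it had 2.51, 3.00 and 3.25 and was called higher than at E20 by 2.05 (SE 0.36, adjusted p = 0.00439), a call that was lost with only the D100 and E20 libraries in the fit (limma, adjusted p = 0.134). ENSGALG00000041471 had 5.87 and 5.79 at E20, against 7.80, 7.89 and 8.29 at E16 (difference -2.17, SE 0.27, adjusted p = 0.0003). It remained between 5.34 and 6.83 afterwards. It lay on the same scaffold as ENSGALG00000044453, which was called lower first at D100.

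**Figure D5:**
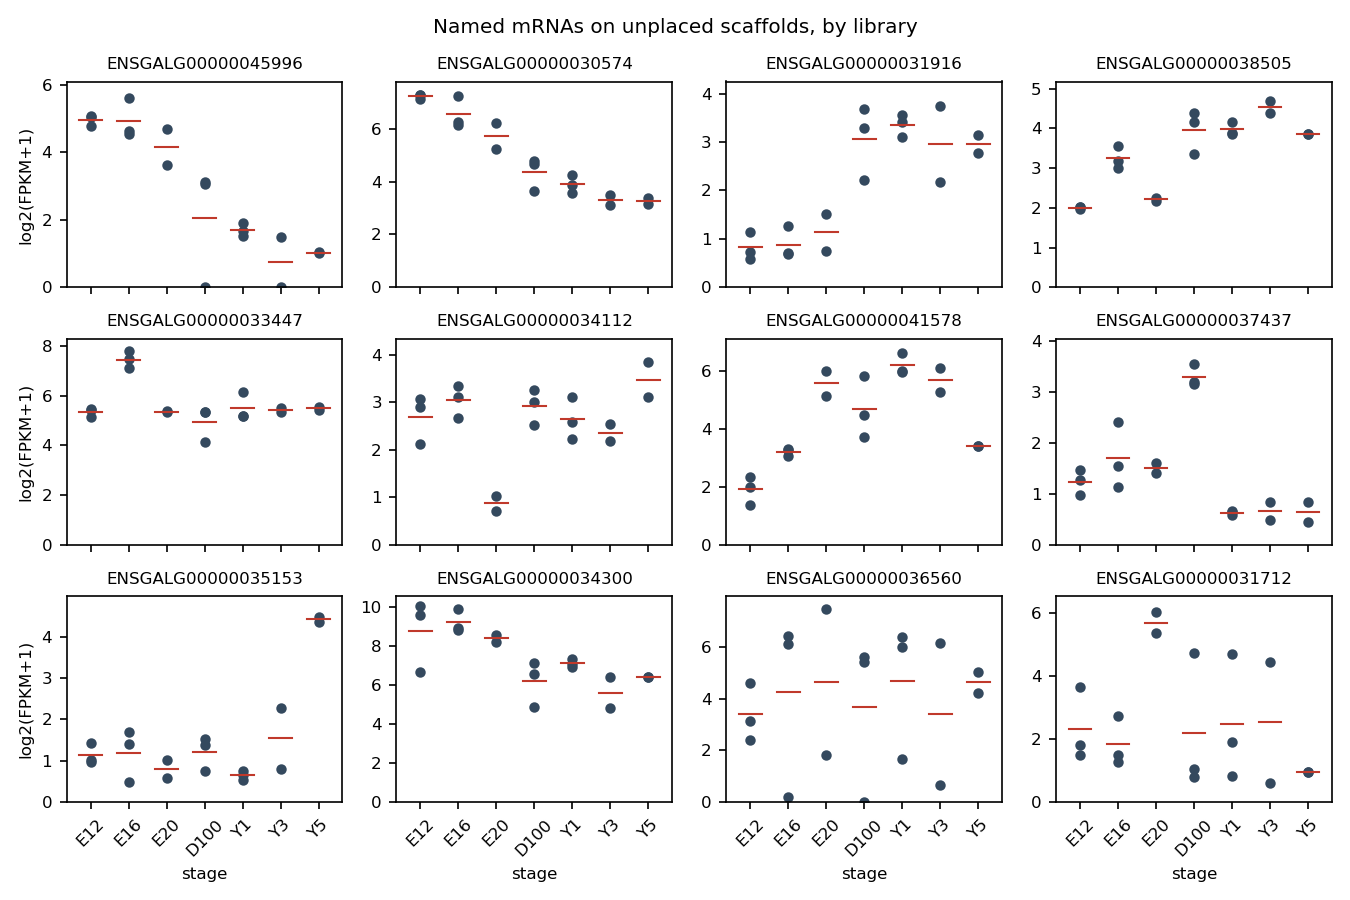
log2(FPKM+1) (vertical axis) by stage (horizontal axis) of 12 named unplaced mRNAs; each point is 1 library and red lines are stage means. ENSGALG00000033447 stands above 7 at E16 only, ENSGALG00000034112 is lowest at E20 (0.71 and 1.03), ENSGALG00000037437 is highest at D100, and ENSGALG00000036560 ranges from 0 to 7.49 with no order by stage.

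Between D100 and E20, 21 unplaced mRNAs rose (1.79%, against 2.28% of all mRNAs) and 34 fell (2.91%, against 3.1% of all). After median-ratio scaling 29 rose and 28 fell, and without D100 replicate 3 there were 35 that rose and 28 that fell. Placed mRNAs turned under the scaling too, from 311 that rose and 417 that fell to 447 and 322. The balance of rises and falls of unplaced mRNAs at D100 therefore turned with that library and with the scaling, and the turn with scaling was shared by placed mRNAs. Without E20 replicate 1 the count was 16, and without E20 replicate 2 it was 20. A fit of the D100 and E20 libraries alone called 0 unplaced mRNAs, so every call given for this step rests on a spread estimated over all stages.

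The largest called rises with stages that did not overlap were those of ENSGALG00000046586, ENSGALG00000034112 and ENSGALG00000031916. ENSGALG00000046586 had 2.50, 3.56 and 5.03 at D100, against 1.75 and 1.34 at E20 (difference 2.16, SE 0.61, adjusted p = 0.0387). Its highest value was in D100 replicate 3, and the call was lost without that library or any of 9 others (adjusted p up to 0.173).

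The largest called falls with stages that did not overlap were those of ENSGALG00000029953, ENSGALG00000030967 and ENSGALG00000034575. ENSGALG00000034575 had 2.98, 1.74 and 1.43 at D100, against 4.14 and 3.93 at E20 (difference -1.99, SE 0.43, adjusted p = 0.0136). E20 was also its highest stage, and its rise at E20 relative to E16 was called (difference 1.48, SE 0.43, adjusted p = 0.0356). ENSGALG00000030967 had 0.79, 0.51 and 1.50 at D100, against 3.08 and 2.94 at E20 (difference -2.08, SE 0.56, adjusted p = 0.0325), and adults lay higher again, between 1.40 and 3.27. ENSGALG00000029953 had 0.85, 0.62 and 0 at D100, against 3.76 and 1.83 at E20 (difference -2.30, SE 0.68, adjusted p = 0.048). These 3 calls were lost without any of 2 to 14 libraries, with adjusted p up to 0.0954, 0.153 and 0.368 in the order ENSGALG00000034575, ENSGALG00000030967, ENSGALG00000029953.

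Between Y1 and D100, 19 unplaced mRNAs rose (1.62%, against 3.35% of all mRNAs) and 10 fell (0.855%, against 1.77% of all). The majority turned with the processing. After median-ratio scaling, placed mRNAs went from 469 that rose and 247 that fell to 340 and 385. Of unplaced mRNAs, 14 rose and 21 fell after the scaling, and 11 rose and 24 fell without D100 replicate 3. Scaling moved the median difference of all mRNAs by -0.13, to 0.01. The count was 11 without D100 replicate 1, 15, 14 and 18 without Y1 replicate 1, 2 or 3. A fit of the Y1 and D100 libraries alone called 3.

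ENSGALG00000037437 was highest at D100. It had 0.64, 0.66 and 0.59 at Y1, against 3.17, 3.55 and 3.20 at D100 (difference -2.68, SE 0.28, adjusted p = 0.000426). It was also called higher at D100 than at E20, where it had 1.60 and 1.42 (difference 1.80, SE 0.31, adjusted p = 0.00431). It was the 1 unplaced mRNA called at this step with Bonferroni adjustment in limma, by which 0.124% of all mRNAs fell. In no adult library was it above 0.85.

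ENSGALG00000037271 had 2.83, 2.60 and 2.27 at Y1, against 5.04, 4.51 and 3.74 at D100 (difference -1.87, SE 0.29, adjusted p = 0.00271), and its call was lost with only these libraries in the fit (adjusted p = 0.0582). ENSGALG00000043013 was listed at 0 in 2 of the 3 libraries at Y1, against 3.68, 2.26 and 2.31 at D100 (difference -2.32, SE 0.59, adjusted p = 0.0272). Its call was lost without D100 replicate 1, Y1 replicate 1 or Y1 replicate 3 (adjusted p up to 0.119).

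Of the called rises at Y1 with stages that did not overlap, that of ENSGALG00000031546, described with its scaffold, was the largest (difference 2.59, SE 0.39, limma, adjusted p = 0.00258). It too lost its call with only the Y1 and D100 libraries in the fit (adjusted p = 0.0588). ENSGALG00000034611 had 2.41, 2.12 and 2.18 at Y1, against 0.66, 0.17 and 0.86 at D100 (difference 1.67, SE 0.34, adjusted p = 0.00949). In the other adult libraries it was between 0.23 and 0.85 but for 1.95 in Y3 replicate b. ENSGALG00000045795 had 2.51, 2.44 and 2.77 at Y1, against 0, 1.80 and 0.98 at D100 (difference 1.65, SE 0.41, adjusted p = 0.0258), a call that was lost without any of 4 libraries (adjusted p up to 0.113).

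Between Y3 and Y1, limma with Benjamini-Hochberg adjustment called 0 unplaced mRNAs, where 0.0206% of all mRNAs rose and 0.0275% fell. With an unadjusted p of at most 0.05 and the same fold, 8 had a higher value (against 1.09% of all mRNAs) and 27 a lower one (against 1.33% of all), and with Bonferroni adjustment 0 unplaced mRNAs were called. Leaving out Y3 replicate a or Y3 replicate b gave 1 call each. Over all unplaced mRNAs the median difference was -0.09, against 0.02 over placed mRNAs.

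Between Y5 and Y3, 2 unplaced mRNAs rose (0.171%, against 0.522% of all mRNAs) and 3 fell (0.256%, against 0.206% of all). The median difference over unplaced mRNAs was -0.15, against -0.01 over placed mRNAs. A positive difference was found for 436 unplaced mRNAs (37.3%), against 6581 placed mRNAs (49.2%). Each stage had 2 birds, and the count depended on them: 0 were called without Y3 replicate a, Y5 replicate a or Y5 replicate b, and 23 without Y3 replicate b. Leaving out a library of another stage gave 3 to 18, among them 18 without D100 replicate 3 and 13 without E16 replicate 3.

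ENSGALG00000035153 had 4.36 and 4.49 at Y5, against 0.80 and 2.28 at Y3 (difference 2.89, SE 0.45, adjusted p = 0.00844). No other library of this mRNA was above 1.71. ENSGALG00000031041 had 2.73 and 3.05 at Y5, against 1.22 and 1.06 at Y3 (difference 1.75, SE 0.32, adjusted p = 0.0213). It was low at D100 as well, with 0.90, 0.39 and 1.45, and its Y1 values of 2.24, 2.49 and 2.18 were called higher than those of D100 by 1.39 (SE 0.26, adjusted p = 0.00611).

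ENSGALG00000030073, ENSGALG00000030868 and ENSGALG00000029514 had a like course, with higher stage means at D100, Y1 and Y3 than at E12, E16 and Y5. ENSGALG00000030073 had 3.12 and 3.05 at Y5, against 5.29 and 4.86 at Y3 (difference -1.99, SE 0.39, adjusted p = 0.0294). ENSGALG00000030868 had 0.54 and 0.41 at Y5, against 2.15 and 1.93 at Y3 (difference -1.57, SE 0.31, adjusted p = 0.0323). ENSGALG00000029514 had 5.45 and 5.38 at Y5, against 6.76 and 6.38 at Y3 (difference -1.15, SE 0.25, adjusted p = 0.0452).

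All Y5 values of these 3 mRNAs lay within the range of the embryonic libraries. The 5 calls between Y5 and Y3 were each lost without Y3 replicate a, Y5 replicate a or Y5 replicate b (adjusted p between 0.0508 and 0.332 over the libraries that ended a call). ENSGALG00000029514 lost its call without any of 12 libraries and ENSGALG00000030868 without any of 5. With only the Y5 and Y3 libraries in the fit none of the 5 was called (adjusted p of 0.0916 to 0.123).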

How the data were processed

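The authors removed ribosomal RNA, made strand-specific libraries, aligned reads with HISAT2 to Gallus_gallus-5.0, assembled transcripts with StringTie 1.3.3 and computed FPKM with Cufflinks 2.2.1. The authors filtered mRNAs at an FPKM above 0.1 and deposited the table as log2(FPKM+1). A lncRNA table was not used here, since it gives no chromosome. Of the value columns of the mRNA table, 3 without a stage in their name were not used, so 18 of 21 libraries and 7 of 8 stages were analysed. The columns of Y3 and Y5 are numbered unlike their labels, so these libraries are called a and b. Nothing says that libraries of a stage were processed apart, beyond being separate birds.

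All 14558 mRNAs were fitted with limma 3.58.1 in R 4.3.3 (7 stage means, variance trend), and each earlier stage was subtracted from the next, and the mean of the embryonic stage means from that of the adult ones. mRNAs were called at a fold of 2 or more, or of 0.5 or less, where the Benjamini-Hochberg adjusted p was at most 0.05. Library measures were compared with 100000 sign flips or exact permutation in Python 3.11.15. Alternatives were Bonferroni adjustment, only mRNAs with a mean of 1 FPKM or more, a pseudocount of 0.1, median-ratio scaling, only the libraries compared, a replicate block, other placed mRNAs and leaving out each library. The procedure was tested on simulated data.

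Named are the 10 unplaced mRNAs of highest mean, the 10 largest rises and falls for adult against embryonic and up to 3 for each adjacent step (called, ranges not overlapping), the 5 at 0 in most libraries and the 5 of largest within-stage SD. Members and lists were chosen with earlier results of these data known. Marker and gene family lists by symbol, and sequences, were not analysed here because identifiers could not be paired with symbols.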

Additional observations from a re-analysis of the deposited data

Results flagged for a closer look

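Adult or embryonic values of named unplaced mRNAs, and of the level gap, zero gap and FPKM share, were tested for a library far from the rest. Of these 46 sets 1 was flagged, and chance alone flags about 1 in 20 sets. ENSGALG00000030087, lower in adults than in embryos by the difference of -1.86, had 3.11 in Y3 replicate b. The nearest other adult library was at 3.74 and the farthest at 4.10, so the gap took 0.632 of the adult range. Without that library the call was kept.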

How the results depend on the processing

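Averaged over libraries, the lower level and the larger share of zeros of unplaced mRNAs kept their direction under every alternative run. Both passed the test each time, which covers the repeat over libraries and not the spread over mRNAs. Leaving out a library gave level gaps of -1.53 to -1.50 and zero gaps of 1.60 to 1.79 points. For the differences of these gaps between periods, which did not pass the test, leaving out a library gave -0.12 to -0.06 and 0.0852 to 0.567 points. The adult and embryonic difference in the share of summed FPKM was -0.42 to -0.279 points with a library left out. Its unadjusted p rose above 0.05 without any of 7 libraries (exact permutation p up to 0.0739), while its adjusted p had missed the threshold with all of them. Without MT entries the difference was -0.304, and without the most abundant unplaced mRNA and the most abundant placed mRNA it was -0.726. Bonferroni adjustment left 2 calls at E16 against E12, 3 at E20 against E16, 0 at D100 against E20, 1 at Y1 against D100, 0 at Y5 against Y3 and 33 for adult against embryonic. Of all mRNAs, it called 0.158%, 0.611%, 0.234%, 0.172%, 0.0481% and 5.98% in the same order. With only the libraries compared, the counts of unplaced mRNAs were 44, 18, 0, 3 and 0 for the first 5 comparisons. The shares of all mRNAs are not given for that fit. With a pseudocount of 0.1, Y5 against Y3 had 3 calls and adult against embryonic 175, and with median-ratio scaling Y5 against Y3 had 9. Leaving out a library gave 7 to 47, 22 to 94, 16 to 70, 11 to 38, 0 to 1, 0 to 23 and 80 to 105 calls in the order of stages with adult against embryonic last; where this left a stage with 1 bird, it was assumed to vary like the others. Replicate numbers name different birds. The 26 pairs of same-numbered libraries had a median correlation of deviations of 7.75e-05, from -0.34 to 0.34, with 6 pairs above 0.1. Whether some of them shared a batch was not tested. A replicate block gave 28 calls at D100 against E20 and 18 at Y1 against D100. Of 49 named calls, 23 were kept under each alternative, 26 were lost under at least 1 and 0 changed direction. Median-ratio scaling kept all 49, a pseudocount of 0.1 lost 6 and only the libraries compared lost 18. The 49 are the calls for which mRNAs were named as rises or falls. They were followed through these alternatives and leaving out each library, not through Bonferroni adjustment. Other calls given above, such as those of the most abundant mRNAs between adjacent stages, were not followed through the alternatives. The number of reads behind each value is unknown, and with 2 or 3 birds a stage the counts between adjacent stages are uncertain.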
